A study of Mus musculus with 9 samples.

Results

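The transcripts described here are those of 7 intracellular regulators that restrain or adjust signaling from Toll-like receptor 4, TNF receptors and cytokine receptors: Tnfaip3, Tnip1 and Tnip3, Socs1 and Socs3, and Traf1 and Birc3. They were chosen by name, as the rows with these symbols among the 6462 genes of the expression table, and all 7 were present. RNA was sequenced from BV2, an immortalized mouse microglial cell line, in 3 groups of 3 libraries: untreated cells (0 h), and cells given 200 ng/ml of lipopolysaccharide (LPS) for 1 h or for 12 h. LPS is a component of the bacterial outer membrane that activates Toll-like receptor 4. The title of the series asks how the kinase PLK2 acts in microglial activation. The labels name no genotype or second treatment for any group, and whether libraries within a group stem from separate cultures is not stated, so p-values measure the spread between these libraries, which may be technical. No untreated cells were kept for 1 h or 12 h among the libraries used, so LPS and time in culture cannot be told apart.

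Toll-like receptor 4 and TNF receptors assemble protein complexes held together by chains of ubiquitin, which recruit the kinases that release NF-κB. Several NF-κB target genes encode proteins that act back on these complexes. Tnfaip3 encodes A20, which edits and binds ubiquitin chains, and Tnip1 and Tnip3 encode proteins that bind ubiquitin and A20. Birc3 encodes a ubiquitin ligase of the inhibitor of apoptosis family, and Traf1 encodes an adaptor that joins such ligases to receptors through TRAF2. Socs1 and Socs3 encode inhibitors of JAK kinases that also recruit a ubiquitin ligase, and they are known targets of interferon and of interleukin-6 family signals.

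The stretches just upstream of the genes are shown because the transcripts followed different time courses. For 5 of the 7, the 250 bases before the start of the gene are printed 5′ to 3′ on the strand of the gene, from the RefSeq promoter table of build GRCm38.p6. Capitals mark every match, on either strand, to the NF-κB consensus, the GAS motif TTCNNNGAA bound by STAT proteins, the AP-1 motif TGACTCA, the cAMP response motif TGACGTCA, the interferon-stimulated response element (ISRE) or TATAAA.
Tnfaip3: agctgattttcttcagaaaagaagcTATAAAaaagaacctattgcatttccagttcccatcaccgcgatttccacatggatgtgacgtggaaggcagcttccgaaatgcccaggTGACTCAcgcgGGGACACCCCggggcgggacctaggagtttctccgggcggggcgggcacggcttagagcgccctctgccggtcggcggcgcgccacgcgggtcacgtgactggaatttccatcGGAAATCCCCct
Tnip1: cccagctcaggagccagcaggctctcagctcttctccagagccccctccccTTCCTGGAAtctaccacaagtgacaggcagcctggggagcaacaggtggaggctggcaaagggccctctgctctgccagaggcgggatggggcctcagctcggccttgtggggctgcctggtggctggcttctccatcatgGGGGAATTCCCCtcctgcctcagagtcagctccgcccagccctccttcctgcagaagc
Tnip3: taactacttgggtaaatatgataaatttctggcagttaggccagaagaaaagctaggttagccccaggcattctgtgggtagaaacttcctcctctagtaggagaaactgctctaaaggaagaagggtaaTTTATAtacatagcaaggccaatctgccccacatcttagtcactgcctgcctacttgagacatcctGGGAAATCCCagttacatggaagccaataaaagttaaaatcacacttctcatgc
Socs1: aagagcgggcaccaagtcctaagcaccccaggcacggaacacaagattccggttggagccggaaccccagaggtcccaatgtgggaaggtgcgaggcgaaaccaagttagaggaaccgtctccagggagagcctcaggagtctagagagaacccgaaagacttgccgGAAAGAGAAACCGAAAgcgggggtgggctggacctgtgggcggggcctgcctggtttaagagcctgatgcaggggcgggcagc
Socs3: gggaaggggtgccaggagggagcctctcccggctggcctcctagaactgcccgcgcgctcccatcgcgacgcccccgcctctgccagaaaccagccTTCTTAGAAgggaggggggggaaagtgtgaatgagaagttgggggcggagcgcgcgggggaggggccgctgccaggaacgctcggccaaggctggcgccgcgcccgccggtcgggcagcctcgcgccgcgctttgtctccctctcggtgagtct
The windows lie at chr10:19015411-19015660 (minus strand) for Tnfaip3, chr11:54962941-54963190 (minus strand) for Tnip1, chr6:65590148-65590397 (plus strand) for Tnip3, chr16:10785537-10785786 (minus strand) for Socs1 and chr11:117969367-117969616 (minus strand) for Socs3. Those of Traf1, at chr2:34961773-34962022, and Birc3, at chr9:7873171-7873420, both on the minus strand, held none of the 6 motifs. A second Tnfaip3 window in the table held none either.

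NF-κB consensus matches occurred in the 3 genes of the A20 group. In Tnfaip3 they lay at -125 to -116 and at -12 to -3 relative to the start. The first of these stood 4 bases downstream of an AP-1 match at -136 to -130. In Tnip1 overlapping matches spanned -58 to -47, and in Tnip3 the match lay at -54 to -45. The GAS motif was found in Socs3, at -154 to -146, and in Tnip1, at -199 to -191. Socs1 was the member with ISRE matches, which overlapped between -83 and -68. TATAAA was found in Tnfaip3 at -225 to -220 and, on the other strand, in Tnip3 at -120 to -115. Among all 32851 windows of 250 bases in the table, 7.25% held the NF-κB consensus, 7.02% the GAS motif, 4.46% AP-1, 1.55% the cAMP response motif, 2.98% the ISRE and 12.4% TATAAA. A match describes letters in this window and is not a measured binding site. The GC content of the windows ranged from 42.4% in Tnip3 to 71.6% in Socs3, around a median of 52.4% over all windows.

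**Figure D1:**
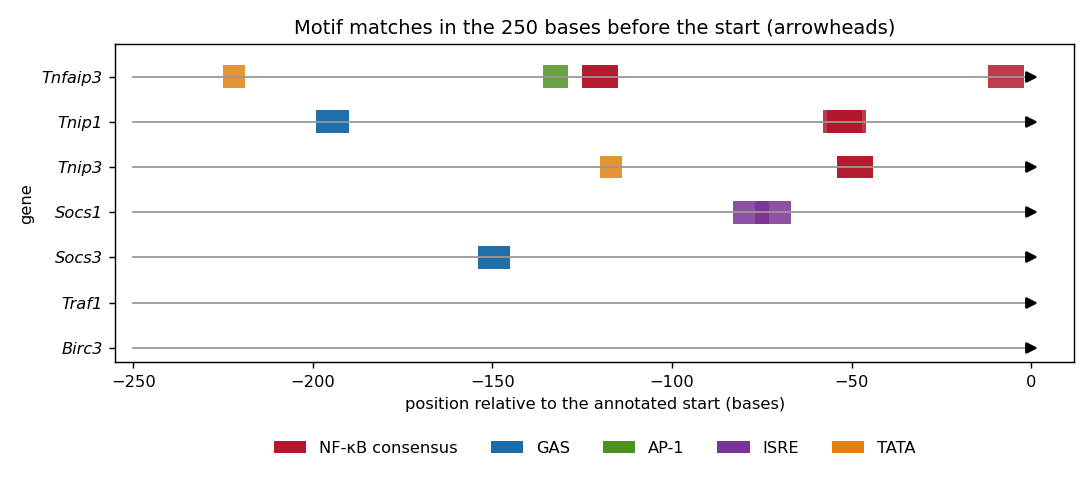
Motif matches in the 250 bases before the annotated start of each of the 7 genes, with position in bases on the horizontal axis and 1 line per gene. NF-κB matches sit within 60 bases of the start in Tnip1 and Tnip3, and the Traf1 and Birc3 lines are empty.

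Levels are given as FPKM, the authors' count of fragments scaled to transcript length and library size, and differences as the log2 difference in FPKM + 1 with its standard error (SE). Adjusted p-values are from limma with Benjamini-Hochberg adjustment over the 5643 tested genes, those with a mean of at least 1 FPKM over the 9 libraries, and a gene was called at an adjusted p under 0.05. All 7 regulators passed that level. Tnip3, Socs1 and Traf1 had untreated means under 1 FPKM and passed through their levels with LPS, so counts over the 7 are descriptive. After 1 h, 6 of the 7 were called higher and 0 lower, where 24.1% of tested genes were called higher and 34.9% lower. After 12 h all 7 were higher than in untreated cells, against 41.1% higher and 40.6% lower among tested genes. The median log2 difference of the 7 was 1.03 at 1 h and 1.76 at 12 h, beside -0.03 and 0.03 over all tested genes. The F test over the 3 groups called 7 of 7, which carries little information because it called 94.3% of tested genes. All 6462 genes of the table carry a deposited flag whose header names estimated differential expression. Both comparisons with untreated cells use the same 3 untreated libraries.

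Tnfaip3 rose steeply and then fell back. Its FPKM was 2.07, 1.76 and 1.80 in the untreated libraries, 17.7, 19.5 and 18.6 at 1 h, and 5.60, 5.86 and 6.41 at 12 h. The 3 groups were fully separated, with every 1 h library above every 12 h library. The mean went from 1.88 ± 0.169 to 18.6 ± 0.917 (SD, n = 3 each), a 9.91-fold ratio of mean FPKM, with a log2 difference of 2.77 (SE 0.0585, adjusted p = 1.88e-14). This was the 18th largest increase among the tested genes. At 12 h the mean of 5.95 ± 0.414 was still 3.17-fold the untreated mean (log2 difference 1.27, adjusted p = 6.58e-11). Between 1 h and 12 h Tnfaip3 fell by 1.50 on the log2 scale (SE 0.0585, adjusted p = 1.35e-11), which left 24.4% of the 1 h rise in FPKM, with the 12 h libraries between 22.2% and 27.1%.

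Tnip1, which encodes an A20-binding adaptor, rose in steps instead. Its FPKM was 8.13, 8.27 and 8.24 without LPS, 17.7, 17.1 and 18.2 at 1 h, and 40.0, 38.1 and 40.5 at 12 h. The untreated libraries had a coefficient of variation of 0.906%, and no groups overlapped. The rise was 2.15-fold at 1 h (log2 difference 1.02, SE 0.0373, adjusted p = 1.17e-11) and 4.81-fold at 12 h (log2 difference 2.14, SE 0.0373, adjusted p = 2.65e-15). The step from 1 h to 12 h, a log2 difference of 1.12 (adjusted p = 2.43e-12), was itself past the threshold.

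Tnip3, a relative of Tnip1 whose protein also binds A20, followed the same order at a much lower level. It measured 0.354, 0.316 and 0.309 FPKM in untreated cells, 1.05, 1.54 and 1.34 at 1 h, and 3.48, 3.29 and 3.69 at 12 h. Again no groups overlapped, although the 1 h libraries were spread with a coefficient of variation of 18.7%. The ratio of mean FPKM was 4.02 at 1 h and 10.7 at 12 h. On the log2(FPKM + 1) scale, which compresses genes this low, the differences were 0.80 (SE 0.0747, adjusted p = 6.04e-07) and 1.76 (SE 0.0747, adjusted p = 2.79e-11). With a pseudocount of 0.1 in place of 1 they were 1.71 and 3.07. In a fit of only the 6 libraries of the 1 h comparison, Tnip3 fell below the filter on level and was not tested, which left 5 of the 7 called higher. From 1 h to 12 h Tnip3 rose by a further 0.96 (adjusted p = 2.46e-08).

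Socs3, the SOCS protein that acts on receptors containing the shared interleukin-6 family chain, also rose at both times. Its FPKM was 5.44, 4.78 and 4.81 in untreated cells, 10.8, 11.3 and 11.7 at 1 h, and 30.9, 29.7 and 32.8 at 12 h. The groups were separate at each step. The mean rose 2.25-fold at 1 h (log2 difference 1.03, SE 0.0519, adjusted p = 5.31e-10) and 6.21-fold at 12 h (log2 difference 2.42, SE 0.0519, adjusted p = 1.98e-14). Between the LPS times it rose by 1.39 (adjusted p = 8.75e-12). The ratio of mean FPKM at 12 h was lower than those of Tnip3 and Traf1 and above those of the other 4.

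Socs1, which inhibits JAK kinases downstream of interferon receptors, was the member whose difference at 1 h did not pass the test. Its FPKM was 0.545, 0.849 and 0.737 in untreated cells and 0.660, 0.758 and 0.823 at 1 h, so these groups overlapped. The log2 difference was 0.03 (SE 0.0812, adjusted p = 0.741), with a 95% interval from -0.14 to 0.21 on the log2(FPKM + 1) scale. At 12 h it measured 2.21, 2.81 and 2.40 FPKM, above all 6 other libraries. The mean of 2.47 ± 0.310 (SD, n = 3) was 3.48-fold the untreated mean of 0.710 ± 0.154, a log2 difference of 1.02 (adjusted p = 2.74e-08). The difference from 1 h was 0.99 (adjusted p = 4.69e-08). At under 1 FPKM, the sign of the small 1 h difference depended on 1 library: without untreated library 1 it was -0.04 (adjusted p = 0.727).

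Traf1 rose from near 0 to between 2.34 and 3.77 FPKM with LPS. The untreated libraries measured 0.0139, 0.0255 and 0.0502 FPKM, the 1 h libraries 2.57, 2.72 and 2.74, and the 12 h libraries 2.77, 2.34 and 3.77. Every LPS library was far above every untreated library, and the 2 LPS groups overlapped. The ratios of mean FPKM, 89.6 at 1 h and 99.0 at 12 h, rest on very few untreated fragments. The 3 untreated values stand in the proportions 1, 2.005 and 4.013 once relative library depth is taken into account, and if the smallest value were 1 fragment, 7 fragments in all would face 644 at 1 h. That ratio is 87.9, with a 95% interval from 42.4 to 219.6 that covers counting error only. At 12 h the same reckoning gave 715 fragments and a ratio of 96.7 (46.7 to 241.4). On the log2(FPKM + 1) scale Traf1 rose by 1.84 at 1 h (SE 0.0978, adjusted p = 9.74e-10) and by 1.93 at 12 h (adjusted p = 1.97e-10).

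The Traf1 difference between 12 h and 1 h was 0.09 (adjusted p = 0.392), with a 95% interval from -0.12 to 0.30. The value turned on single libraries of the 12 h group. Without 12 h library 3, the highest, it was -0.05 (adjusted p = 0.504), and without 12 h library 2, the lowest, it was 0.21 and passed the threshold (adjusted p = 0.0411).

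Birc3, which encodes the ubiquitin ligase cIAP2, shared the shape of Tnfaip3 at a smaller size. Its FPKM was 3.86, 3.99 and 3.48 in untreated cells, 9.56, 8.63 and 9.12 at 1 h, and 5.87, 6.26 and 5.84 at 12 h. The 12 h libraries lay between the other groups without touching either. The mean rose 2.41-fold at 1 h (log2 difference 1.08, SE 0.0542, adjusted p = 5.03e-10) and was 1.59-fold the untreated mean at 12 h (log2 difference 0.55, adjusted p = 2.84e-07). Between the LPS times Birc3 fell by 0.53 on the log2 scale (adjusted p = 4.84e-07), with 41.5% of the 1 h rise in FPKM left. Birc3 and its neighbor and relative Birc2 are similar in sequence, and how the authors' counting divided fragments that fit both is not given in the sources used here.

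**Figure D2:**
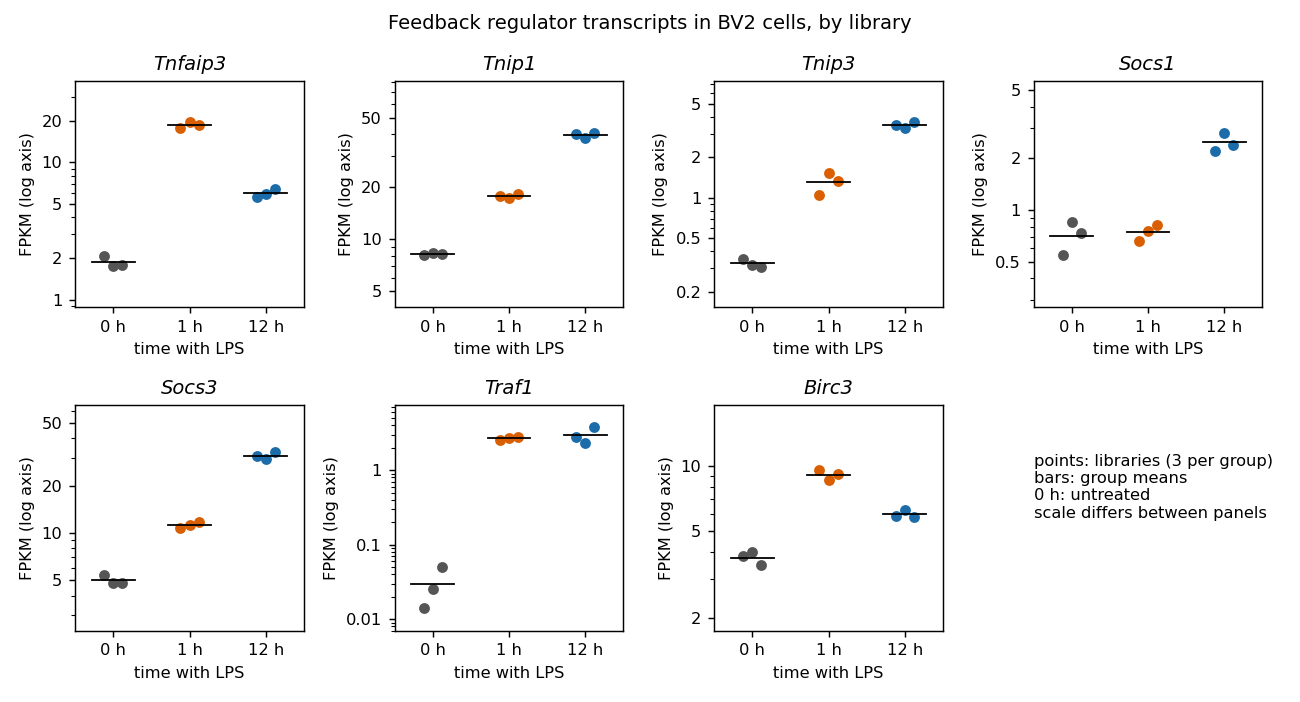
FPKM of each regulator in the 9 libraries (log axis, scale differing between panels) by time with LPS, with points for libraries and bars for means of 3. Tnfaip3 and Birc3 peak at 1 h, Tnip1, Tnip3 and Socs3 climb at each step, Socs1 rises at 12 h, and Traf1 goes from under 0.1 FPKM to between 2.34 and 3.77.

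In the direct comparison of 12 h with 1 h, 4 of the 7 were called higher (Tnip1, Tnip3, Socs1 and Socs3) and 2 lower (Tnfaip3 and Birc3), beside 41.9% and 43.6% of all tested genes. These shares of the background are large, so the counts alone do not set the 7 apart; the time courses of the single genes carry the description. The A20 group was therefore split, with the enzyme gene lower and both adaptor genes higher at 12 h than at 1 h. In RNA from a whole culture, fewer cells expressing a gene and less RNA per cell cannot be told apart.

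**Figure D3:**
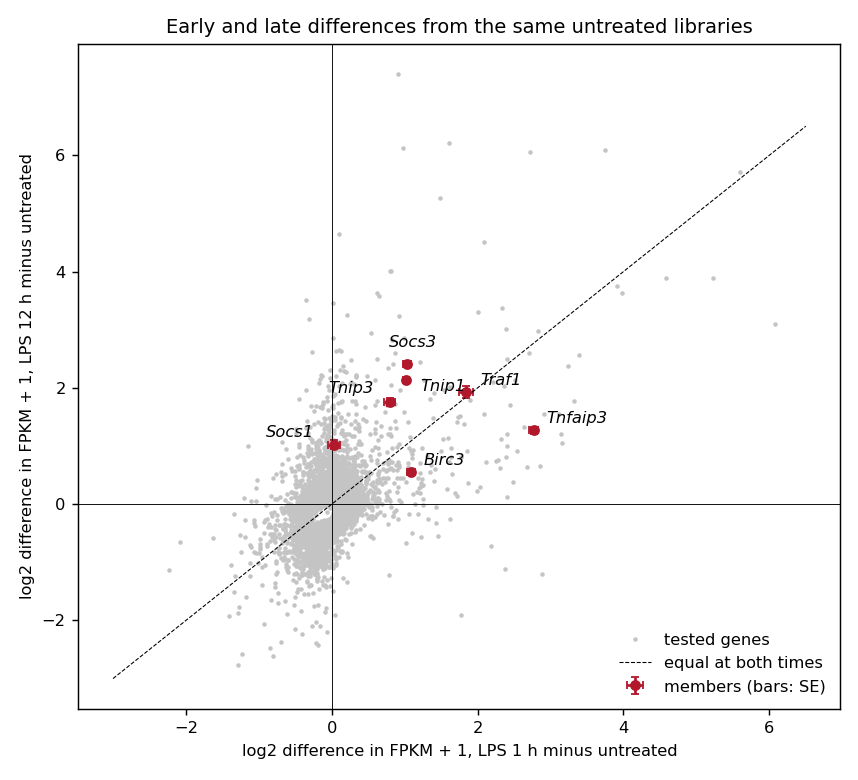
Log2 difference in FPKM + 1 from untreated cells at 1 h (horizontal) and 12 h (vertical), for the 7 regulators with SE bars and for all 5643 tested genes in grey; both axes share the untreated libraries. Tnfaip3 and Birc3 lie below the dashed line of equal differences, Traf1 lies near it, and Tnip1, Tnip3, Socs1 and Socs3 lie above it.

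The balance between related genes was compared within libraries, as the log2 ratio of FPKM + 1, for 5 pairs and 3 comparisons each. With 3 libraries against 3 the two-sided exact permutation test cannot give a p below 0.1, so none of the 15 tests could pass. For Tnfaip3 over Tnip1 the mean log2 ratio was -1.68 in untreated cells, 0.07 at 1 h and -2.55 at 12 h. The transcript of the enzyme thus matched that of its adaptor at 1 h, and at 12 h lay below the untreated ratio in all 3 libraries (exact permutation p = 0.1 for each step, adjusted p = 0.115). The 3 groups did not overlap. Socs3 over Socs1 went from 1.82 to 2.81 and 3.21, also without overlap; with a pseudocount of 0.1 the last step turned to -0.14. Tnip3 over Tnip1 went from -2.80 to -3.02 and -3.18 with a pseudocount of 1, but turned to increases of 0.62 at 1 h and 0.82 at 12 h with 0.1, so no direction is drawn from it.

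Birc3 rose against a falling Birc2. Birc2 encodes the related ligase cIAP1. It had means of 4.43 ± 0.200, 3.72 ± 0.374 and 3.10 ± 0.176 FPKM (SD, n = 3 each), a fall of 0.20 at 1 h (adjusted p = 0.0119) and of 0.41 at 12 h (adjusted p = 2.68e-05). The log2 ratio of Birc3 to Birc2 was -0.19, 1.10 and 0.77 over the 3 groups, which did not overlap. Traf2, which encodes the ligase adaptor that TRAF1 joins, had means of 4.03, 4.68 and 4.84 FPKM, with log2 differences of 0.17 (adjusted p = 0.00514) and 0.22 (adjusted p = 0.000591). The ratio of Traf1 to Traf2 was -2.29 in untreated cells, and -0.63 and -0.58 with LPS, where the 2 LPS groups overlapped (exact permutation p = 0.9). Because untreated Traf1 was near 0, the size of its rise depends on the pseudocount: 1.66 at 1 h and 1.71 at 12 h with 1, but 4.22 and 4.28 with 0.1. For Tnfaip3 and Cyld, a deubiquitinase that also acts on NF-κB complexes, the ratio was not analysed here.

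**Figure D4:**
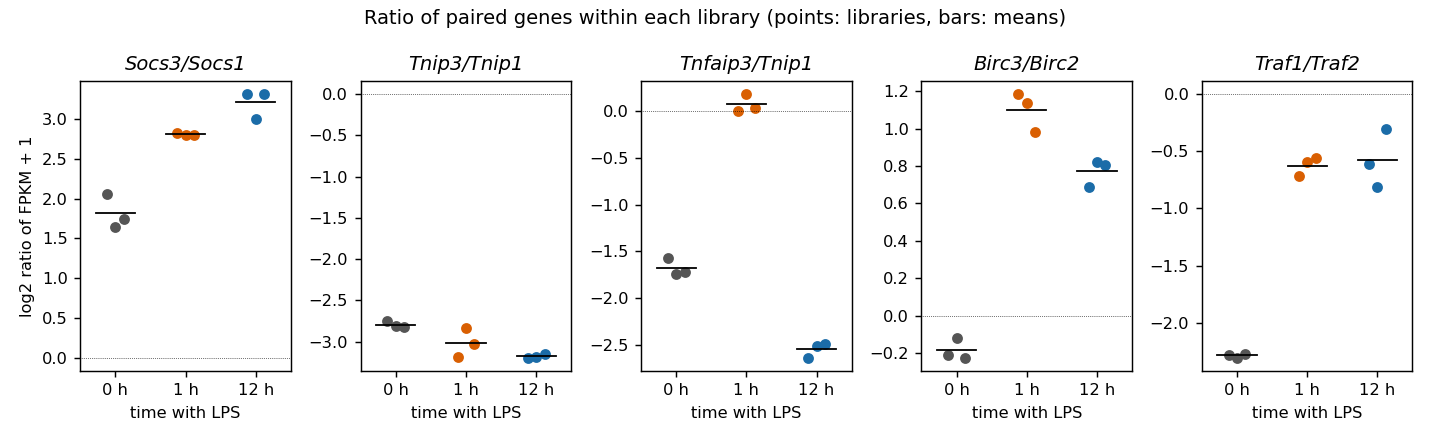
Log2 ratio of FPKM + 1 of 5 gene pairs within each library (points), with bars for the means of 3 libraries, by time with LPS; the vertical scale differs between panels. The Tnfaip3 to Tnip1 ratio is near 0 at 1 h and about -2.55 at 12 h, while the Birc3 to Birc2 ratio stays above 0 after LPS.

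A list of other ubiquitin ligases, deubiquitinases and partners of NF-κB signaling had 25 of 37 genes tested, and most of their differences were small. At 1 h, 11 were called higher and 5 lower, with a median log2 difference of 0.05, and at 12 h 16 were higher and 1 lower, with a median of 0.19. The 1 lower became 2 without untreated library 1 or 12 h library 2. Counts of this and the later lists stand beside 24.1% of all tested genes higher and 34.9% lower at 1 h. At 12 h these background shares were 41.1% and 40.6%, and from 1 h to 12 h they were 41.9% and 43.6%. Otud1, a deubiquitinase, rose by 0.69 at 1 h (adjusted p = 1.46e-06) and then decreased by 0.69 up to 12 h (adjusted p = 4.58e-07), a transient course like that of Tnfaip3. Rnf11, whose protein works in the A20 complex, rose by 0.51 at both times (adjusted p = 7.31e-06 and 2.21e-06). The ligase gene Rnf19b rose by 0.64 and 0.96, and Trim30a by 1.73 at 12 h (adjusted p = 6.09e-11). Usp18, which encodes a protease for the ubiquitin-like protein ISG15 that also restrains the interferon receptor, rose by 2.08 at 12 h (adjusted p = 8.39e-13). The largest 1 h difference in the list, 2.03, was that of Nfkbie, which encodes an inhibitor of NF-κB rather than a ubiquitin enzyme.

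Of 19 other SOCS and JAK-STAT regulators, 9 were tested; 4 were called higher and 2 lower at 1 h, and 2 higher and 3 lower at 12 h. The 2 lower at 1 h became 1 without untreated library 1, 1 h library 1 or 1 h library 2. The largest difference in this list was that of Usp18, which the ubiquitin list also holds, with its rise of 2.08 at 12 h. Socs4, Socs7 and Socs5 rose by 0.39, 0.24 and 0.21 at 1 h (adjusted p = 0.000178, 0.000768 and 0.00733), and Socs4 and Socs5 fell again by 12 h, by 0.35 and 0.28. Pias1 and Pias3, which encode inhibitors of STAT proteins, fell by 0.34 and 0.35 at 12 h (adjusted p = 3.83e-06 and 0.00011). Ptpn6, a phosphatase gene, fell by 0.20 at 1 h. The median of this list was 0.00 at 1 h and 0.01 at 12 h, and its sign changed when single libraries were left out.

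The signals that SOCS proteins restrain moved in different directions. Of 5 tested cytokine ligands of JAK-STAT receptors, 4 were called higher and 1 lower at both times. Il6 and Csf3 had untreated means of 0.106 and 0.0888 FPKM and passed the filter through their levels with LPS. The count higher is therefore descriptive, beside 24.1% of all tested genes at 1 h and 41.1% at 12 h. Il6 rose by 1.49 at 1 h and 5.27 at 12 h (adjusted p = 4.11e-08 and 1.42e-14), and Csf3, the gene of granulocyte colony-stimulating factor, by 0.98 and 6.13. Osm, an interleukin-6 family ligand, rose by 1.73 and 1.49. Il15 fell by 0.51 at 1 h (adjusted p = 0.00187). Of 19 tested JAK-STAT receptors, kinases and factors, 2 were higher and 10 lower at 1 h, and 10 were higher and 9 lower at 12 h. The 2 higher at 1 h became 1 without untreated library 2, untreated library 3 or 1 h library 1. The interleukin-6 receptor gene Il6ra fell by 0.94 and the interleukin-10 receptor gene Il10ra by 0.86 at 12 h (adjusted p = 1.28e-09 and 4.68e-08). At the same time Stat3, which encodes a factor known for interleukin-6 signals, rose by 0.72 (adjusted p = 5.58e-10). Stat2 fell by 0.70 at 1 h and was 1.25 higher at 12 h than at 1 h.

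Among 24 tested relatives and partners of Traf1 and Birc3, 6 were called higher and 9 lower at 1 h, and 10 each way at 12 h. These counts are near the shares over all tested genes, 24.1% and 34.9% at 1 h and 41.1% and 40.6% at 12 h. With p-values adjusted for the 21878 genes implied by the ranks, an alternative added after seeing the data, the 6 at 1 h became 3. The medians were 0.01 and -0.04, the second turning to 0.02 with quantile normalization. Tank, which encodes a TRAF-binding protein that dampens NF-κB, rose by 0.84 at 1 h (adjusted p = 9.43e-10). Tifab, whose protein acts on TRAF6 signaling, fell by 0.95 at 1 h and 0.91 at 12 h (adjusted p = 1.53e-08 and 7.43e-09), and Tifa fell by 0.45 at 1 h. At 12 h Trafd1, another dampener of Toll-like receptor signaling, rose by 0.86, and Ripk2 and Traf3ip2 rose by 0.70 each.

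TRAF proteins are recruited by receptors of the TNF family, of which 11 were tested: 5 were called higher and 5 lower at 1 h, and 6 higher and 4 lower at 12 h. Cd40 rose by 2.00 at 1 h and 3.30 at 12 h (adjusted p = 2.12e-12 and 7.25e-15), in the same direction as Traf1. Tnfrsf1b, which encodes the TNF receptor that binds TRAF2 directly, rose by 1.71 at 12 h (adjusted p = 5.19e-13). Tnfrsf9 fell by 1.21 at 1 h (adjusted p = 5.25e-08) and rose by 1.31 from 1 h to 12 h. Fas and Tnfrsf12a rose by 1.31 and 1.23 at 1 h. Fas, with an untreated mean of 0.144 FPKM, passed the filter through its levels with LPS.

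All 11 NF-κB subunit and IκB genes were tested and all 11 were called higher at 1 h (median log2 difference 1.40). Nfkbie had an untreated mean of 0.686 FPKM and passed the filter through its levels with LPS. At 12 h 10 of the 11 were higher than in untreated cells, and 8 were lower than at 1 h while 3 were higher. Among 26 tested other negative regulators of Toll-like receptor 4 signaling, which share Nfkbia, Nfkbib, Nfkbid and Bcl3 with the list above, 11 were higher and 7 lower at 1 h, and 16 were higher and 9 lower at 12 h. Nfkbia, the gene of IκBα, rose by 3.23 at 1 h and 2.38 at 12 h. Zc3h12a, which encodes an RNase that degrades cytokine transcripts, rose by 2.70 and 2.59. Dusp1, a phosphatase gene acting on MAP kinases, and Zfp36, whose protein destabilizes cytokine transcripts, rose by 2.39 and 2.33 at 1 h.

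**Figure D5:**
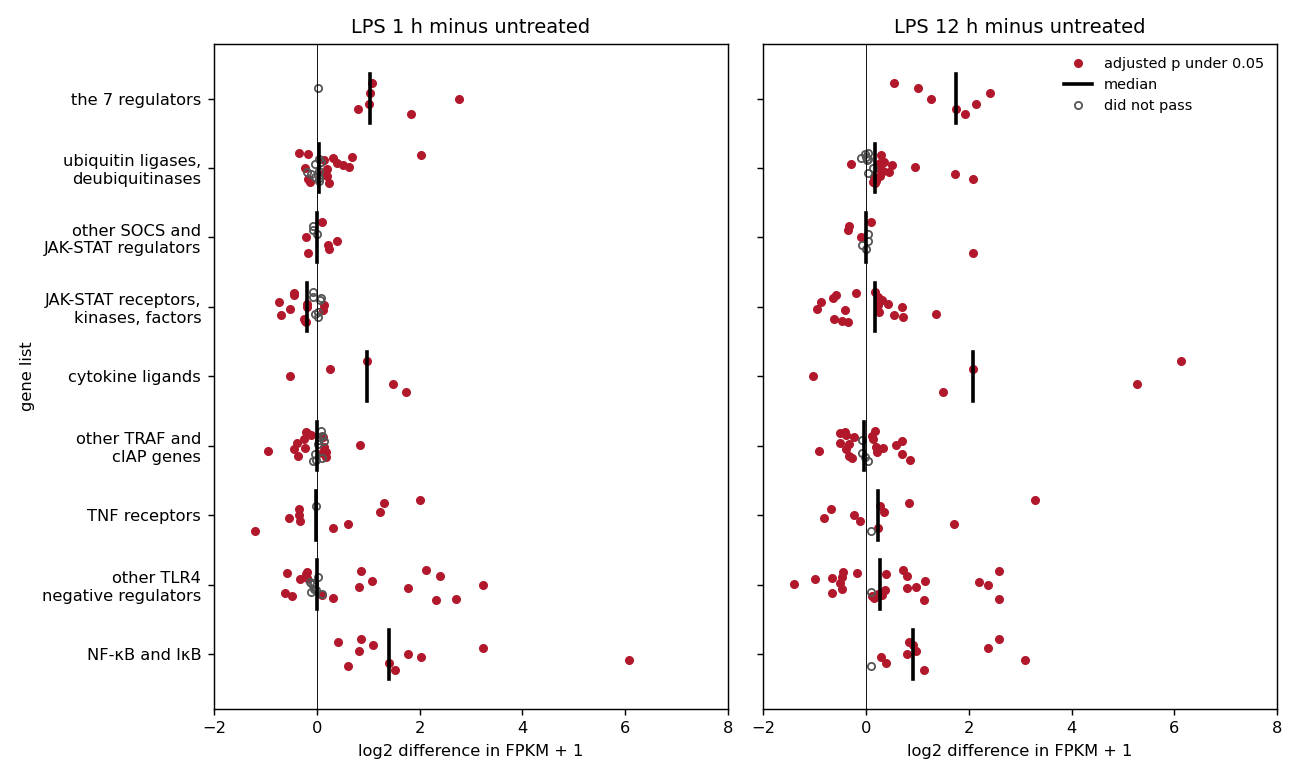
Log2 difference in FPKM + 1 from untreated cells at 1 h (left) and 12 h (right) for each tested gene of the 7 regulators and of 8 lists, filled where the adjusted p was under 0.05, with a line at the median. The NF-κB and IκB genes all lie above 0 at 1 h, whereas the lists of SOCS relatives and TRAF relatives have medians near 0.

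The genes with the most similar profiles were found by the root mean square (RMS) distance over the 9 libraries, each gene taken as log2(FPKM + 1) minus its own untreated mean, among 465 genes that passed minimums on level and range. Nearest to Tnfaip3 were Maff (0.122), Pim1 (0.185) and Zc3h12c (0.229), and nearest to Birc3 were Tnfaip2 (0.0833), Ccdc71l (0.104) and Fam46c (0.112). Both neighborhoods consist of genes with a higher difference at 1 h than at 12 h, which follows from their choice by distance. For Tnip1 they were Bcl2a1b (0.146), Ehd1 (0.148) and Cebpd (0.193), and for Socs3 Cebpd (0.114), Bcl3 (0.177) and Ehd1 (0.223). Tnip1 and Socs3 thus had Ehd1 and Cebpd in common, and they were the closest pair among the 7 themselves, at a distance of 0.171. Tnip3 was nearest to Cybb (0.0911), Plaur (0.114) and Osgin2 (0.114). Socs1 was nearest to Rnf149 (0.0937), Pcdh7 (0.102) and Manf (0.107), all with small 1 h differences, again through the choice by distance. Traf1 was nearest to Rab20 (0.151), Gadd45a (0.175) and Cd14 (0.189). These neighbors rest on the pseudocount of 1, which compresses genes as low as Traf1, Tnip3 and Socs1. With 0.1 Traf1 rose by 4.43 rather than 1.84 at 1 h, and neighbors were not sought on that scale. The most distant pair of members was Tnfaip3 and Socs1, at 1.59.

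The deposited pathway annotation put Tnfaip3, Socs3, Traf1 and Birc3 in TNF signaling. By difference in log2(FPKM + 1) they ranked 6, 19, 12 and 17 of 64 tested genes at 1 h. At 12 h they ranked 15, 11, 13 and 26. This scale compresses genes as low as Traf1 and Socs1, and the dependence of ranks on the pseudocount was not tested. The TNF pathway had 32 genes higher and 18 lower at 1 h, beside 24.1% and 34.9% of all tested genes. Socs1 and Socs3 were in Jak-STAT signaling, at ranks 18 and 6 of 58 at 1 h and 9 and 3 at 12 h. In ubiquitin mediated proteolysis Birc3 and Socs3 ranked 2 and 3 of 65 at 1 h. At 12 h Socs3, Socs1 and Birc3 ranked 1, 3 and 6. That pathway as a whole had 26 genes higher and 26 lower at 12 h. These counts are near the shares over all tested genes, 41.1% and 40.6%. Tnip1 and Tnip3 were in none of the pathways that were looked up. Toll-like receptor signaling, also looked up, held 0 of the regulators.

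Libraries of a group were alike, with a correlation across genes of 0.9981 to 0.9986 on the log2(FPKM + 1) scale. Libraries of different groups had 0.9241 to 0.9698; genes are not independent replicates. The listed FPKM summed to between 195872 and 198075 per untreated library, 203515 and 205413 at 1 h, and 223720 and 228207 at 12 h. The sums thus did not overlap between groups. With quantile normalization or scaling by median of ratios, 6 members were higher at 1 h and 7 at 12 h, as without them. From 1 h to 12 h, 4 were higher and 2 lower under both, again as without them. Beyond these alternatives, the part of the sums in the results was not tested. Read depth is not given in the sources used here. Steps in low FPKM values placed the other 8 libraries at 1.081 to 1.17 times the depth of untreated library 1, roughly, since they rest on 11 to 34 genes each. Of 14 microglia and macrophage markers, 10 were in the table, among them Tyrobp, Cd68, Csf1r, Itgam and Trem2. Their summed level was 1208 to 1298 FPKM in untreated libraries, 1168 to 1200 at 1 h and 1100 to 1147 at 12 h, most of it from Tyrobp and Cd68. From untreated cells to 12 h the mean of Tyrobp went from 559.8 to 412.3 FPKM and that of Trem2 from 90.5 to 47.5, while Itgam went from 27.9 to 70.3, Adgre1 from 36.6 to 62.0 and Spi1 from 62.7 to 89.3. P2ry12, a homeostatic microglial marker, was low, at a mean of 1.24 FPKM in untreated cells and 0.219 at 12 h. Of the astrocyte and neuron markers 0 of 6 each were among the genes used, and of the fibroblast markers 0 of 5. The lymphocyte marker Cd2 was at most 0.178 FPKM, and the oligodendrocyte lineage marker Olig2 at most 0.0841 FPKM. Flt1, listed as an endothelial marker, measured 15.2 to 21.8 FPKM.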

How the data were processed

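RNA of 9 BV2 libraries was sequenced; per the labels' protocols, it was isolated with TRIzol and made into stranded poly(A) libraries with a TruSeq kit. The authors deposited 1 table of FPKM per gene and stated no other scaling. It also holds, per the file headers, a p-value, a q-value and a rank score for each gene; their test is not given in the sources used here. The p-value is above the q-value in 6022 genes and equal to it in 440, which adjusted values would not be, so neither was used to call genes. A deposited flag for estimated differential expression is set in all 6462 genes, and the highest value in the q-value column is 0.09993. The listed genes were therefore taken as selected on these samples, and adjusted p-values give no error rate over the transcriptome. The submitters' processing notes name Trimmomatic, HISAT2, Cufflinks, HTSeq, DESeq and GRCh38, a human build, although the genes carry mouse symbols; no coordinates of that build were used.

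FPKM values were compared as log2(FPKM + 1) in the 5643 genes with a mean of at least 1 FPKM; 819 were left out. One mean per group was fitted with limma 3.58.1 in R 4.3.3 (eBayes with trend, 6 residual degrees of freedom), with 3 contrasts and a moderated F test. Benjamini-Hochberg adjustment ran over all tested genes. The fit was tested on simulated data. Ratios used exact permutation tests in R. The motif search and the fragment reckoning for Traf1 used Python 3.11.15.

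The members, lists and tests were chosen with earlier results of these data known. Named genes are the 7 members, their ratio partners, up to 4 called genes per list and comparison by size of difference, and the 3 nearest profiles per member. Some genes that this rule names are not reported here. Nearest profiles had a mean of at least 5 FPKM in a group and a range of at least 1 (log2). Alternatives were pseudocounts of 0.1 and 0.5, no filter, a mean of at least 5 FPKM, quantile normalization, scaling by median of ratios, array weights, eBayes with no trend, fitting just the 6 libraries compared, a block for library number, and omission of each library. Adjustment over the 21878 genes implied by the deposited ranks was added after seeing the data. RefSeq promoter windows matched all 7 members.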

Additional observations from a re-analysis of the deposited data

Results flagged for a closer look

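For 6 of the 7 genes the difference from untreated cells itself differed between 1 h and 12 h, as tested in the limma fit by the contrast of the LPS groups. The effect at 12 h minus that at 1 h was -1.50 for Tnfaip3 and -0.53 for Birc3, which were lower in all 3 libraries at 12 h than in any at 1 h. It was 1.12 for Tnip1, 0.96 for Tnip3, 0.99 for Socs1 and 1.39 for Socs3, which were higher in all 3. Among all tested genes 41.9% were higher and 43.6% lower at 12 h than at 1 h, so 6 of 7 is near the background and the direction of each gene carries the description. Groups of 3 libraries are too small for a check of single outlying values.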

How the results depend on the processing

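Over the alternatives, 406 values of the member differences kept their direction and side of the threshold; 2 turned and 1 passed it. Leaving out each library in turn gave -0.0378 to 0.0916 for Socs1 at 1 h and -0.0520 to 0.206 for Traf1 between LPS times, the turned values being those without untreated library 1 and 12 h library 3. The replicate block rests on library numbers, and the labels do not say whether these pair the libraries. After subtraction of the group means, same-numbered libraries of different groups had residual correlations across genes from -0.0666 to 0.128. By these residuals 5 of 9 libraries correlated best with their own number, which does not settle it. With the block, 6 members were higher at 1 h, 7 at 12 h, and 4 were higher and 2 lower at 12 h than at 1 h, as without it. With a mean of at least 5 FPKM, 3 members were no longer tested, so 4 were higher at 12 h than in untreated cells, 2 were higher at 12 h than at 1 h, and the F test called 4. With only the 6 libraries compared, 5 members were higher at 1 h, since Tnip3 fell below the filter. A pseudocount of 0.1 gave Traf1 4.43 at 1 h and 4.54 at 12 h, and Socs1 1.68 at 12 h. Ratios turned for Socs3 over Socs1 (12 h minus 1 h, -0.142 with 0.1), for Traf1 over Traf2 (12 h minus 1 h, -0.0858 to 0.167 with each library left out) and for Tnip3 over Tnip1 (0.619, 0.821 and 0.201 with 0.1; 0.0652, 0.0708 and 0.0056 with 0.5). Counts of list genes called differed by over 1.5 times in 32 instances, mostly where the count was 1 to 5 genes; without the filter, cytokine ligands higher went from 4 to 7 at 1 h and from 4 to 9 at 12 h. Some list medians turned as well. With each library left out, SOCS relatives ranged from -0.00787 to 0.0163 at 1 h and -0.0216 to 0.0338 at 12 h. In the same way TRAF relatives ranged from -0.0158 to 0.0485, TNF receptors from -0.179 to 0.00336 and other Toll-like receptor 4 regulators from -0.00781 to 0.0245 at 1 h. With no filter the last had -0.0250 at 1 h, and SOCS relatives had 0.00654 between LPS times (-0.23 otherwise), as they did with the stricter filter. The stricter filter gave TRAF relatives -0.118 between LPS times and JAK-STAT receptors -0.199 at 12 h (0.19 otherwise). Median-of-ratios scaling gave TNF receptors 0.00254 at 1 h. Quantile normalization gave TRAF relatives 0.0182 at 12 h, and all tested genes -0.0180 at 12 h and -0.0206 between LPS times. Except for members lost to the stricter filter, the cause of these changes was not tested. Fragment counts are unknown, so apart from the rough reckoning for Traf1 no counting precision is given for genes under 1 FPKM.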
